A study of Mus musculus with 16 samples.

Results

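A stretch in the middle of 28S rRNA, the 59 successive bins of 20 nt that follow position 2100 (counted from 1 at the first nucleotide of the reference used for the deposited files), was described by where reverse transcription stopped in it. Its members were all nucleotides of these bins, chosen by position alone, and made up 17.2% of the 6878 rRNA positions measured. Another 3551 positions were in the rest of 28S. The stretch had been picked as the middle of 28S with expansion segment 27 (ES27). The borders of ES27 were not given in the sources used here, and no 28S sequence was used, so the positions are called by number and the bases at them were not read.

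Pseudouridine was mapped by Ψ-seq in total RNA of CD4 T cells taken from lymph nodes of female mice and activated for 20 h on plates coated with anti-CD3 and anti-CD28. All mice carried floxed Rnmt alleles (Rnmt fl/fl). Controls were CD4cre negative, and Rnmt cKO mice were CD4cre positive, so that the gene for the cap methyltransferase RNMT was deleted in T cells during their development in the thymus. The files hold rRNA positions only, so the deletion itself could not be checked in them. Each genotype had 4 animals, and RNA of each animal gave a library treated with the carbodiimide CMC and a mock-treated library, 16 in all.

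Pseudouridine is an isomer of uridine that H/ACA small nucleolar ribonucleoproteins make in rRNA, guided by base pairing to the target. CMC stays bound to pseudouridine, and reverse transcriptase stops next to the adduct, so cDNAs end at the nucleotide that follows it in the RNA. Stops that are just as frequent without CMC mark other obstacles, such as stable structure, other modified bases or broken RNA. Expansion segments are stretches that eukaryotic rRNAs have gained beyond the conserved core, and ES27 is a long, flexible one at the surface of the large subunit, where it meets factors that act on the growing protein.

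The libraries held 1130058 to 2165668 read starts, of which 105845 to 225649 fell in the stretch. The percent termination at a position is the share of the read starts in the 65 nt that end at the position, a stand-in for the coverage, that start there. This coverage was 1583 to 25948 read starts across these positions and libraries, and at least 4528 at the called stops. The thinnest count at a called stop was 65 read starts, in the mock library of Rnmt cKO 3. Nothing in the labels names separate cultures beyond the animals. In unpaired tests between genotypes, p-values measure the spread between animals of a genotype. In tests of CMC against mock and of the interaction, they measure the spread of the CMC response between animals. Where animals are paired by number, they measure the spread of the differences between same-numbered animals.

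The first question was which nucleotides of the stretch carried a CMC-dependent stop. Only 3 nucleotides were called, 2266, 2390 and 2597, with stops at 2267, 2391 and 2598, and they were called in both genotypes. A call needed a mean CMC termination of at least 3% and a mean PSU score, the ratio of an animal's CMC to its mock termination, of at least 3. The density of called sites was 2.54 per 1000 nt here and 10.4 per 1000 nt in the rest of 28S, where 37 were called. All 3 lay in the upstream part of the stretch, 124 and 207 nt apart. From 2597 to the end of the stretch, 683 nt held no called site, and the next called nucleotide of 28S was 3354, 757 nt further on. A longer gap between neighbouring sites, of 1351 nt, was found elsewhere in 28S.

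**Figure D1:**
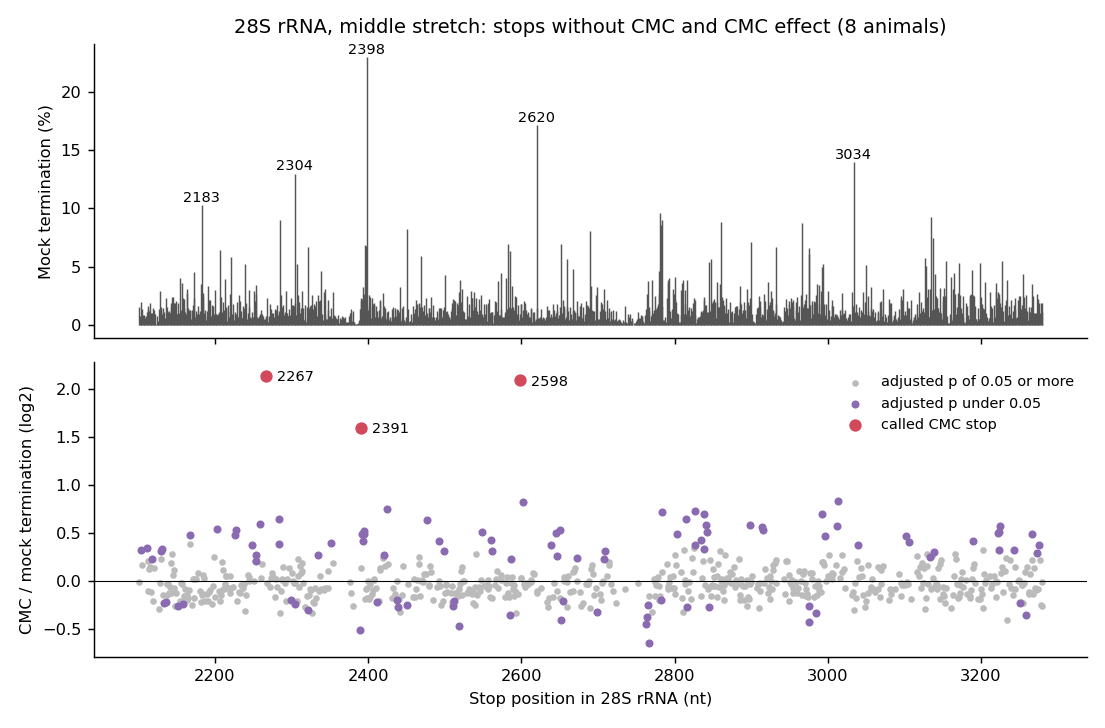
Mean mock termination in percent (top, 8 animals, a line per position, the 5 strongest tested stops numbered) and the edgeR log2 ratio of CMC to mock termination (bottom, a point per tested position) against the stop position in 28S rRNA. The called stops at 2267, 2391 and 2598 stand at log2 ratios of 2.14, 1.60 and 2.09, and the strongest mock stops at 2398, 2620, 3034, 2304 and 2183 lie at other positions.

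At nucleotide 2266 the CMC termination was 3.96%, 3.48%, 3.48% and 3.57% in control 1 to 4 and 3.43%, 3.24%, 3.13% and 3.22% in Rnmt cKO 1 to 4. The groups did not overlap, with every control above every Rnmt cKO animal. The means were 3.62% ± 0.227 and 3.25% ± 0.125 (SD, n = 4 each), a difference with p = 0.0286 in a 2-sided exact permutation test, the smallest that 4 against 4 allows. It did not hold after adjustment over the 6 values tested at the called sites (adjusted p = 0.171, the lowest that a single such value among 6 can reach), nor in the edgeR test across all positions (log2 change -0.15 ± 0.083 SE, adjusted p = 0.419). Mock termination there was 0.851%, 0.688%, 0.789% and 0.800% in control and 0.741%, 0.976%, 0.589% and 0.836% in Rnmt cKO, and these values overlapped.

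The PSU score at 2266 was thus above 3 in all 8 animals. It was 4.65, 5.06, 4.41 and 4.46 in control and 4.63, 3.32, 5.32 and 3.84 in Rnmt cKO. The spread was wider in Rnmt cKO, whose lowest and highest scores enclosed all the control scores. Means were 4.65 ± 0.294 and 4.28 ± 0.878 (SD, n = 4 each), a difference of -0.37 with a 95% interval from -1.64 to 0.905 (limma, adjusted p = 0.824 over 70 called sites of all 4 rRNAs).

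At nucleotide 2390 the CMC stop was the strongest of the 3 and also the least clear against mock. CMC termination was 10.3%, 5.95%, 6.32% and 6.50% in control and 7.10%, 7.58%, 6.40% and 6.25% in Rnmt cKO. Mock termination was 2.69%, 2.14%, 2.2% and 2.17% in control and 2.17%, 1.75%, 3.49% and 2.11% in Rnmt cKO. Control 1 stood high in CMC and Rnmt cKO 3 stood high in mock, while the other animals were close together. With CMC, control 1 had 517 starts at the stop and 5017 in the window. The other controls had 631 to 730 and 10217 to 11552. In mock, Rnmt cKO 3 had 158 and 4528, against 199 to 251 and 9158 to 11873 in the other Rnmt cKO animals. Both high terminations thus came with fewer read starts in the window, not with more at the stop. The cause was not tested. The PSU score was 3.83, 2.78, 2.88 and 2.99 in control and 3.27, 4.32, 1.83 and 2.96 in Rnmt cKO, so that only 3 of 8 animals reached a score of 3.

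The mean scores at 2390 were 3.12 ± 0.481 and 3.09 ± 1.02 (SD, n = 4 each), just inside the limit of 3. They differed by -0.023, with a 95% interval from -1.41 to 1.37 (limma, adjusted p = 0.994). Each genotype's call rested on a single animal here: without control 1 the nucleotide was not called in control, and without Rnmt cKO 2 it was not called in Rnmt cKO. It was called in neither genotype with windows of 40 or 30 nt in place of 65, or when every animal had to pass both limits, and it was the only site kept when the CMC limit was raised to 5%.

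Nucleotide 2597 had the same form as 2266, a low mock stop that rose with CMC. CMC termination was 3.74%, 3.10%, 4.44% and 3.85% in control and 4.28%, 4.52%, 4.13% and 3.23% in Rnmt cKO. Mock termination stayed below 1% in every animal, at 0.957%, 0.966%, 0.955% and 0.891% in control and 0.782%, 0.863%, 0.958% and 0.933% in Rnmt cKO. The resulting PSU scores were 3.91, 3.21, 4.65 and 4.32 in control and 5.47, 5.23, 4.31 and 3.47 in Rnmt cKO. All 8 were above 3 and the groups overlapped.

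The mean score at 2597 was 4.02 ± 0.622 in control and 4.62 ± 0.918 in Rnmt cKO (SD, n = 4 each). The difference of 0.60 had a 95% interval from -0.779 to 1.98 (limma, adjusted p = 0.797). None of the 3 sites passed this test of genotype, and 0 of the 70 sites passed it over all rRNAs (0%).

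**Figure D2:**
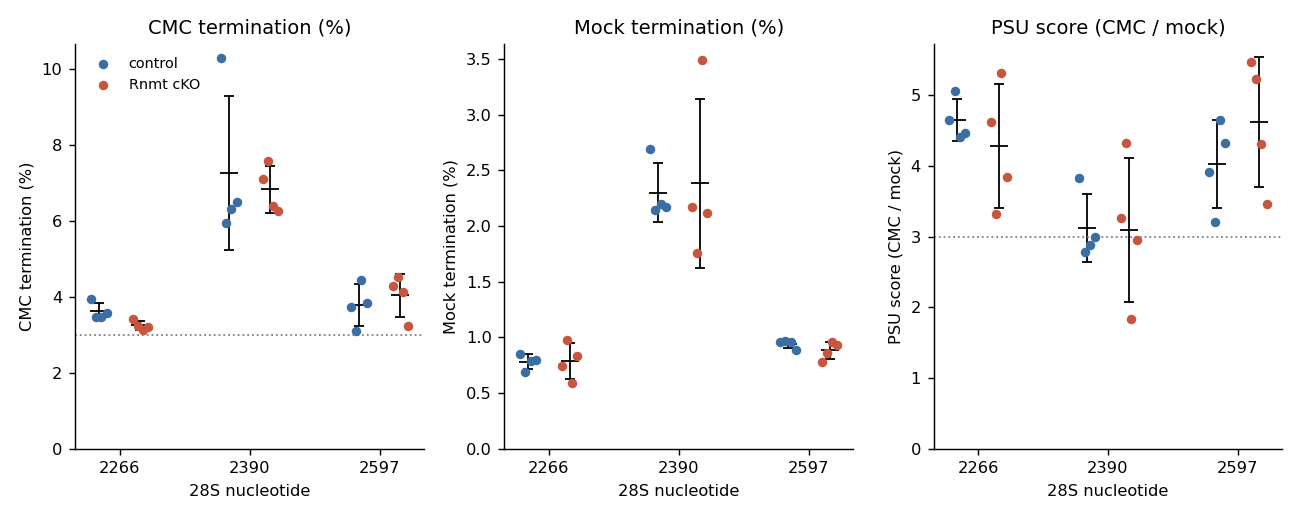
CMC termination in percent, mock termination in percent and PSU score at the 3 called nucleotides, with a point per animal (blue control, red Rnmt cKO), and the mean and SD of each genotype (n = 4) in black. Dotted lines mark the limits of 3% and 3, and at 2390 only 3 of 8 animals lie above the score limit.

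Among the 70 called sites, by mean score over 8 animals, 2266 and 2597 were just below the middle, at ranks 41 and 43, and 2390 was near the bottom, at rank 65. By mean CMC termination 2390 ranked 17, while 2597 and 2266 ranked 56 and 62. The stop at 2391 therefore belonged to the stronger CMC stops of rRNA but stood on a raised mock level.

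The neighbouring positions were closest to mock around stop 2267. At stop 2267 the mean CMC termination was 4.39 times the mock termination, and the ratio of the 3 positions on either side lay between 0.891 and 1.1. At stop 2598 the ratio was 4.28, with 1.5 at position 2596 and 1.27 at 2601 as the highest nearby. Around stop 2391 the ratio was 3.01, and the 3 positions after it stayed raised, at 1.41, 1.34 and 1.45. Before it the ratio was lowered, at 0.589 at position 2388 and 0.711 at 2389. The windows of these positions overlap, and the cause of the raised and lowered ratios was not tested.

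Across the whole stretch, termination was compared between CMC and mock libraries within animals by the quasi-likelihood test of edgeR. Of the 701 positions tested here, 103 passed, or 14.7%, against 21.7% of all 4026 rRNA positions tested. Higher termination with CMC was called at 72 positions (10.3%, against 11.5% of all positions), and lower termination at 31 (4.42%, against 10.2%). The called increases were mostly small, with a median log2 change of 0.47. The count of decreases moved when an animal was left out. Without control 1 it was 58, or 8.26% against 15.4% of all positions, and without control 2 it was 14, or 2% against 7.1%.

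The 3 called stops gave the largest responses among the positions named by p, with log2 changes of 2.14 ± 0.081 at 2267, 2.09 ± 0.092 at 2598 and 1.60 ± 0.119 at 2391 (SE). Next by p was stop 2602, only 4 nt after the called stop 2598, where CMC termination exceeded mock in 8 of 8 animals. It was 2.2% ± 0.181 with CMC and 1.23% ± 0.173 in mock in control, and 2.30% ± 0.269 and 1.31% ± 0.053 in Rnmt cKO (SD, n = 4 each), a log2 change of 0.82 ± 0.085 SE. Stop 2424 followed with 0.76 ± 0.086, again higher in 8 of 8 animals. Both were below the call limits of 3% and a score of 3.

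Decreases with CMC were smaller. The smallest p among them belonged to stops 2389, 2652, 2518, 2975 and 2699, with log2 changes from -0.50 to -0.32, and at each the CMC termination was below mock in 8 of 8 animals. Stop 2389 lies 2 nt before the called stop 2391 and fell by 0.50 on the log2 scale. The others had mock terminations between 1.90% and 5.77% in control.

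Stops that do not need CMC were then compared between genotypes. In the mock libraries 41 positions of the stretch had a mean termination of at least 5%, or 3.47%, and 5 of at least 10%, or 0.424%. In the rest of 28S these shares were 3.18% and 0.845%. The strongest tested stops were 2398, 2620, 3034, 2304 and 2183, and only 3034 lay in the downstream part.

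At stop 2398 the mock termination was 20.1%, 21.8%, 19% and 19.5% in control and 22.2%, 21.9%, 35.6% and 23.5% in Rnmt cKO. Every Rnmt cKO value was above every control value, the highest by far in Rnmt cKO 3, the same animal that was high at the neighbouring stop 2391. The means of 20.1% ± 1.21 and 25.8% ± 6.55 (SD, n = 4 each) gave p = 0.0286 in the exact permutation test and an adjusted p of 0.143 over 10 values. In the CMC libraries the groups overlapped, at 19.4% ± 1.68 and 20.5% ± 1.46 (SD, n = 4 each).

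At stop 2620 the order was the reverse. Mock termination was 32.1%, 16.6%, 19.1% and 18% in control and 21.0%, 10.0%, 8.97% and 11.2% in Rnmt cKO. The animal numbered 1 was the highest of each genotype, and apart from these the controls lay above the Rnmt cKO animals. With CMC the stop was at 17.6%, 19.5%, 16.7% and 14.3% in control and at 14.9%, 8.18%, 13.4% and 16.5% in Rnmt cKO, where the animals numbered 1 no longer stood apart.

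The remaining strong stops were 3034, 2304 and 2183. At stop 3034 the mock means were 13.9% ± 0.957 and 14.1% ± 2.24 (SD, n = 4 each), but the CMC values did not overlap, at 9.28% to 10.7% in control and 10.9% to 13.8% in Rnmt cKO (exact permutation p = 0.0286, adjusted p = 0.143). Stop 2304 had mock means of 12.1% ± 1.01 and 13.8% ± 0.849, and stop 2183 of 11.7% ± 0.780 and 8.85% ± 3.28 (SD, n = 4 each), in both cases with overlap. The unpaired mock log2 change was -0.40 at 2183 and 0.36 at 2398 (edgeR, adjusted p = 0.653 each). At 2183 the animals numbered 1 were the highest of their genotype, at 12.7% and 13.7%. The other controls lay at 11.0% to 11.9%, above the other Rnmt cKO animals at 6.93% to 7.70%. None of the 10 values held after adjustment over the 10 unpaired tests, where 2 at the smallest p that 4 against 4 allows cannot go below the 0.143 given. With animals paired by number, stop 2620 was lower in Rnmt cKO in 4 of 4 pairs and passed the edgeR test of mock termination (log2 change -0.78, adjusted p = 0.0275).

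**Figure D3:**
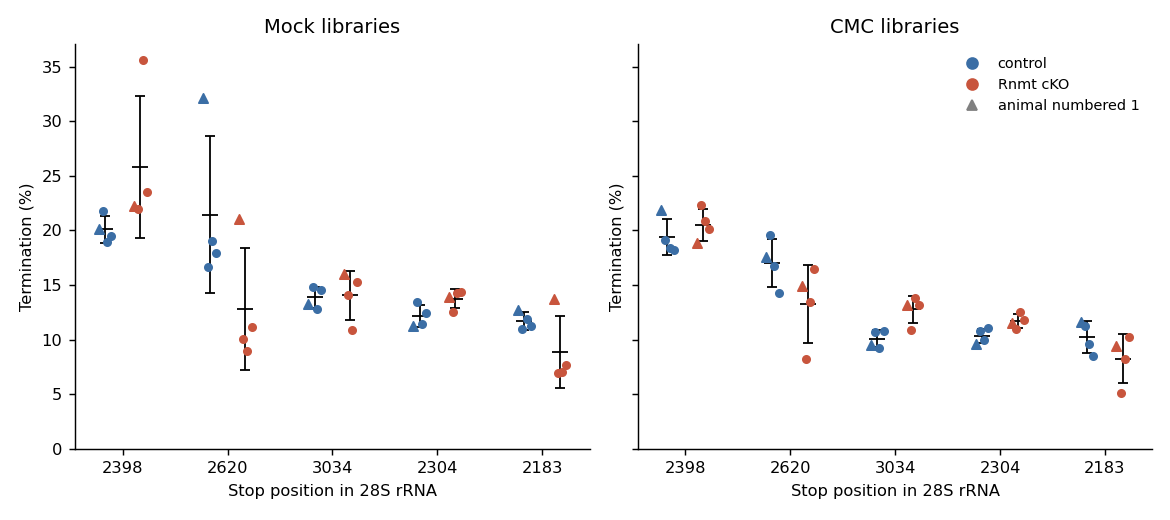
Termination in percent at the 5 strongest mock stops in mock libraries (left) and CMC libraries (right), a point per animal in blue for control and red for Rnmt cKO, with mean and SD (n = 4) in black and triangles for the animals numbered 1. At 2620 both triangles lie above the other mock values of their genotype, at 32.1% and 21.0%, and in the CMC libraries they do not.

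The edgeR test of mock termination between genotypes, with the animals taken as unpaired, called 0 of the 678 positions tested in the stretch, as it did of all 3985 (0%). At an unadjusted p under 0.05 there were 58, or 8.55%, against 6.22% of all positions, and the median log2 change was 0.03 here and 0.04 over all. DESeq2 called 3, stops 2500, 2652 and 2668, all higher in Rnmt cKO, against 0.226% of all positions. Limma on log2 termination called 0.

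The mock libraries of animals with the same number deviated together (r from 0.169 to 0.658), but this rested on the animals numbered 1. Without these the r were 0.025, -0.067 and 0.181, and in the CMC libraries every r was below 0. The labels do not say what the number stands for. As an alternative, a fit with the number as a block was made. It called 7 positions of the stretch, stops 2239, 2442, 2620, 2635, 3161, 3187 and 3202, or 1.03%, against 1.05% of all positions, 42 in number. All 7 were lower in Rnmt cKO, as were 40 of the 42 (1% of all positions). At each of the 7 the Rnmt cKO animal was below the control of the same number in 4 of 4 pairs. The 7 were chosen by these same values, so the order within pairs, and between the animals at each stop, is no further support. The log2 changes lay between -1.14 and -0.67.

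Stop 2635 had the smallest adjusted p of these. Its mock termination was 3.92%, 0.884%, 1.01% and 1.03% in control and 2.00%, 0.534%, 0.545% and 0.492% in Rnmt cKO. In both genotypes the animal numbered 1 was far above the others, which themselves did not overlap between genotypes. The paired log2 change was -0.92 ± 0.116 SE (edgeR, adjusted p = 0.0173), whereas the unpaired one was -0.91 ± 0.626 SE (adjusted p = 0.653).

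The largest of the changes was at stop 2442. Mock termination was 8.22%, 2.39%, 3.23% and 3.29% in control and 5.48%, 1.18%, 1.06% and 1.23% in Rnmt cKO, a paired log2 change of -1.14 ± 0.174 SE (edgeR, adjusted p = 0.0371). At stop 3161 it was 10.5%, 3.68%, 3.86% and 3.73% in control and 4.31%, 2.14%, 1.89% and 2.79% in Rnmt cKO, a change of -0.89 ± 0.149 SE (adjusted p = 0.0424). Here too the number 1 animals were the highest of their genotype and the other 3 controls lay above the other 3 Rnmt cKO animals.

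In the CMC libraries of the same animals the groups overlapped at all 7 stops, and none was called between genotypes (stop 2635 was below the 1% limit of that test). At stop 2442, for example, CMC termination was 2.48%, 3.80%, 2.88% and 1.62% in control and 1.88%, 0.824%, 1.54% and 3.06% in Rnmt cKO. With CMC, control 1 was the highest control at 3187 only, with 2.63% against 2.17% to 2.49%, and Rnmt cKO 1 was not the highest Rnmt cKO animal at any of the 7. The count of the paired mock test changed with the animals used. It was 12 without control 1 (1.75%, against 2.63% of all positions) and 14 without Rnmt cKO 1 (2.06%, against 2.8%). Of the 7 calls, 5 and 7 were kept in these fits. The count was 0, here and over all positions, when any of the other 6 animals was left out. Leaving out an animal also leaves its same-numbered partner without a pair, so a whole pair dropped out of the comparison each time.

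**Figure D4:**
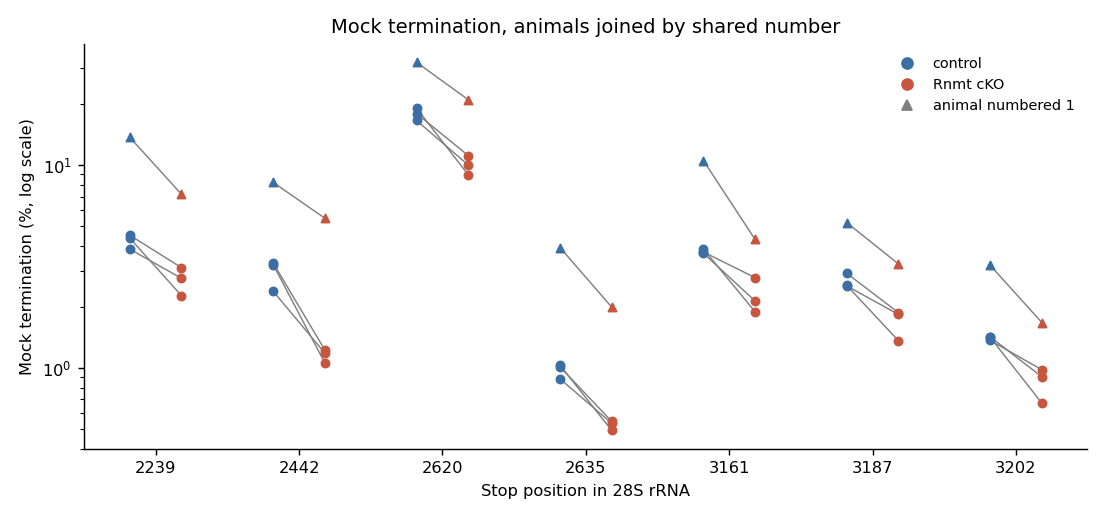
Mock termination in percent on a log axis at the 7 stops called by the paired test, control in blue on the left and Rnmt cKO in red on the right of each set, with lines joining animals of the same number and triangles for number 1. All lines fall from control to Rnmt cKO at these stops, which were chosen by the same values, and the triangles lie highest in each genotype.

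In the CMC libraries the edgeR test between genotypes called 0 of 709 positions in the stretch, as of all 4018 (0%). There were 84 at an unadjusted p under 0.05, or 11.8%, against 15% of all positions. The lowest adjusted p was 0.0684, and the 3 positions with the smallest p were stops 2690, 2975 and 2652. DESeq2 called 13 positions, all higher in Rnmt cKO, or 1.83%, against 1.87% of all positions called higher. Limma called 0, and edgeR restricted to positions of at least 2% termination called 6 of 251, also all higher, or 2.39%, against 1.06% of all such positions.

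At stop 2690 the CMC termination was 5.01%, 5.11%, 4.23% and 6.05% in control and 7.94%, 8.57%, 8.85% and 7.68% in Rnmt cKO. The groups did not overlap in CMC, and they did not in mock either, where the values were 4.63%, 8.00%, 6.95% and 7.12% in control and 8.02%, 8.71%, 10.9% and 10.3% in Rnmt cKO. The log2 change was 0.70 ± 0.112 SE in CMC (edgeR, adjusted p = 0.0684) and 0.51 ± 0.188 SE in mock (adjusted p = 0.653).

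Stop 2975 showed the same order. CMC termination was 3.88%, 3.54%, 3.01% and 4.53% in control and 6.26%, 5.11%, 6.84% and 5.75% in Rnmt cKO, and mock termination 4.06%, 6.40%, 4.07% and 5.67% in control and 7.18%, 6.58%, 11.1% and 7.61% in Rnmt cKO. At stop 2652 it was 3.68%, 4.35%, 4.46% and 4.70% against 6.93%, 6.09%, 6.91% and 5.50% in CMC, and 4.77%, 6.49%, 5.66% and 6.16% against 7.73%, 8.19%, 8.92% and 7.98% in mock. Every Rnmt cKO value was above every control value in both kinds of library at these stops. At 2690 in mock the closest values were 8.00% in control 2 and 8.02% in Rnmt cKO 1. The windows of stops 2652 and 2690 overlap. The 3 stops were chosen by their small p in CMC, so their separation there follows from the choice. The mock libraries were made from RNA of the same 8 animals, and stop 2652 was also among the smallest p in mock. The share of all positions without overlap was not counted. The ratio of CMC to mock was below 1 in 8 of 8 animals at 2975 and 2652 and in 7 of 8 at 2690, so that these stops were no stronger with CMC.

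Whether the CMC response itself differed between genotypes was asked by the interaction of genotype and CMC. It called 0 of 701 positions with edgeR, as of all 4026 (0%), with 29 at an unadjusted p under 0.05, or 4.14%, against 6.06% of all positions. DESeq2 and limma called 0 here too. Stops 2969, 2205 and 2970 had the smallest p, with log2 interactions of -0.56 ± 0.171, 0.47 ± 0.148 and -0.57 ± 0.184 (SE, adjusted p = 0.785 each). At the called stops the interaction was -0.15 ± 0.159 at 2267, -0.06 ± 0.243 at 2391 and 0.19 ± 0.181 at 2598 (SE), none of them past the threshold.

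The last question was how many reads began in the stretch. It makes up 24.9% of the length of 28S but held 17.3% ± 1.1 of the 28S read starts of the CMC libraries in control and 17.7% ± 0.735 in Rnmt cKO (SD, n = 4 each). In mock the shares were 17.5% ± 0.896 and 18% ± 0.567 (SD, n = 4 each). Control values were 15.7%, 18.1%, 17.9% and 17.6% in CMC and 16.3%, 17.3%, 18.1% and 18.3% in mock, with control 1 the lowest in both. Rnmt cKO values were 17.3%, 17%, 18.7% and 17.7% in CMC and 17.4%, 18%, 18% and 18.8% in mock.

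The genotypes overlapped in both kinds of library. Exact permutation tests gave p = 0.657 for CMC and p = 0.429 for mock (2-sided, adjusted p = 0.789 and 0.729 over 6 comparisons), and pairing the mock libraries by number gave an exact p of 0.25, with 0.125 the smallest possible. Without control 1 the CMC difference of 0.368 percentage points became -0.174. CMC and mock shares of the same animals differed by -0.276 ± 0.702 percentage points (SD, n = 8, exact permutation p = 0.281).

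The low share came from the downstream part. The first 590 positions, up to 2690, held 11.5% ± 0.649 of the 28S read starts of control CMC libraries and 11.5% ± 0.366 of Rnmt cKO ones, and the last 590 held 5.8% ± 0.480 and 6.18% ± 0.388 (SD, n = 4 each), where each part is 12.5% of the length. In mock the first 590 positions held 10.1%, 11.5%, 11.9% and 12% in control and 11.1%, 11.7%, 12% and 12.3% in Rnmt cKO. The groups overlapped (exact permutation p = 0.486), while the Rnmt cKO animal was above the control of the same number in 4 of 4 pairs (paired exact p = 0.125, the smallest possible). In bins of 20 nt the median density was 107 read starts per nt per 1000000 in the upstream and 57.6 in the downstream part, with 96.6 in the rest of 28S. All but 1 of the 29 downstream bins, 28, lay below that last value. The cause of the low density was not tested.

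Density varied 13.7 times within the stretch. The densest bins began at 2381, with 214 read starts per nt per 1000000, at 2301 with 174 and at 2321 with 169. The bin at 2381 holds both the called stop 2391 and the strongest mock stop 2398. The 3 thinnest bins were neighbours, from 2721 to 2780, with 20.8, 15.6 and 30.3 read starts per nt per 1000000, all among the 12 thinnest of the 237 bins of 28S. The thinnest, from 2741, was at 14.9 to 17 in control CMC and 13.6 to 17.5 in Rnmt cKO CMC libraries, so it was thin in every animal.

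**Figure D5:**
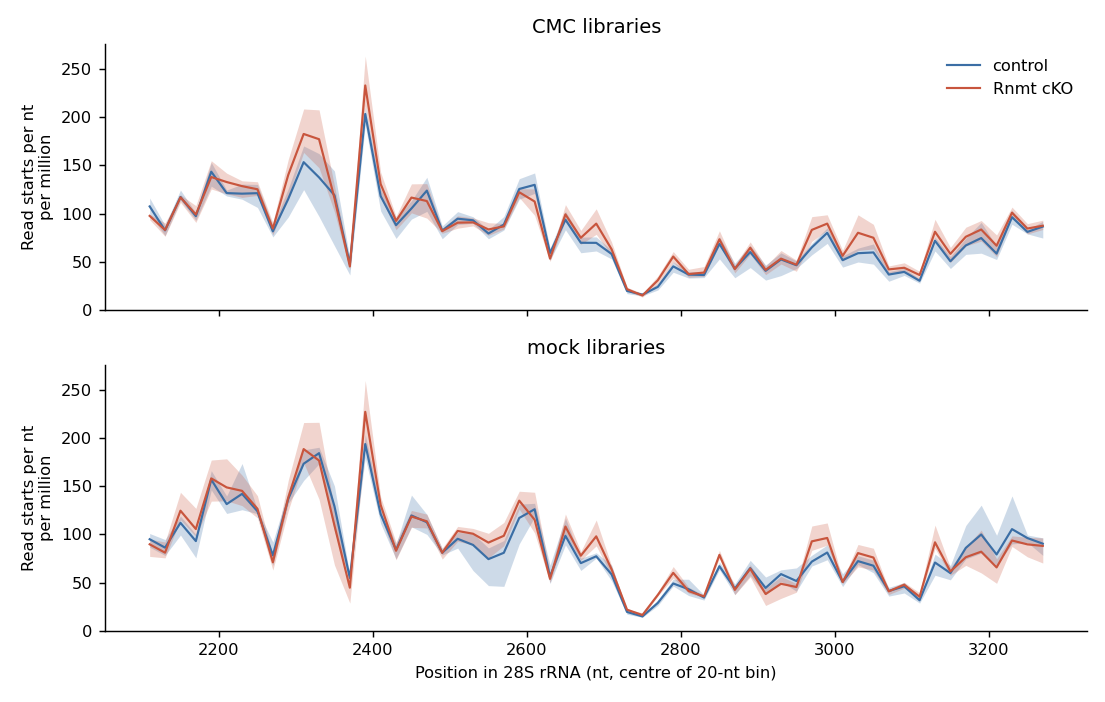
Read starts per nt per 1000000 in bins of 20 nt along the stretch of 28S rRNA, in CMC libraries (top) and mock libraries (bottom), with the mean of each genotype as a line (blue control, red Rnmt cKO) and the range of its 4 animals as a band. The curves of both genotypes peak at the bin from 2381 and dip at the bin from 2741, where the mean density is 15.6.

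By genotype, 0 of the 59 bins passed the edgeR test in the CMC or in the mock libraries, as of all 345 bins (0%). At an unadjusted p under 0.05 there were 12 in CMC, or 20.3% against 23.2% of all bins, and 7 in mock, or 11.9% against 9.57%. The log2 change was above 0 in 44 bins in CMC (74.6%, against 56.5% of all bins) and 34 in mock (57.6%, against 40.3%). The medians were 0.09 and 0.03, against 0.02 and -0.04 over all bins. In CMC the count moved to 34 bins with a median of 0.03 when libraries were scaled to their 28S total. Without control 1 it was 35 bins with a median of 0.04. In mock it moved to 30 bins without control 2 and to 40 with DESeq2. With the number as a block 0 of the mock bins passed, while DESeq2 called 14 in CMC, or 23.7% against 20.3% of all bins, and 5 in mock, or 8.47% against 2.61%.

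The smallest p in CMC were at the bins from 2681, 2961 and 3021, and in mock at those from 2761, 2961 and 2681. The bin from 2681, which holds stop 2690, had 61.4 to 76.0 read starts per nt per 1000000 in control CMC and 78.6 to 105 in Rnmt cKO CMC libraries, and 75.3 to 80.9 against 88.0 to 115 in mock. The bin from 2961, which holds stop 2975, had 57.4 to 69.3 against 71.3 to 96.9 in CMC and 67.1 to 78.3 against 83.3 to 109 in mock. Neither overlapped between genotypes in either kind of library, but both were chosen by their small p in both, so this follows from the choice. The share of all bins without overlap was not counted. Neither bin passed the adjusted test (log2 changes of 0.36 ± 0.099 and 0.35 ± 0.110 SE in CMC, edgeR adjusted p = 0.101 and 0.139). In mock the bin from 2761 had 26.1 to 32.0 in control and 36.1 to 40.4 in Rnmt cKO, a log2 change of 0.36 ± 0.093 SE (adjusted p = 0.462).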

How the data were processed

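Per the labels, 300 ng of total RNA of each animal was split between CMC and mock treatment, and libraries were sequenced with 75 cycles. As the methods describe, the authors moved the 10-nt barcode out of each read, trimmed adapters, aligned with bowtie2 to a customised set of previously deposited rRNA sequences, dropped secondary and low-quality hits and collapsed PCR duplicates. The deposited files hold, for every rRNA position (18S, 28S, 5.8S, 5S), an unnormalised count of the reads that start there. The stretch described runs from 2101 to 3280 of 28S, 1180 positions. Groups and numbers came from the sample titles.

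Coverage was replaced by the read starts in the 65 nt that end at a position (75 cycles less 10 nt), an upper bound, so terminations are lower bounds. The nucleotide assigned is 1 before the stop. Position 1 of each rRNA was left out. Sites were called over all rRNAs by the rule given above, with a score in at least 3 animals. Read starts were tested with edgeR 4.0.16 (quasi-likelihood, log coverage as offset, mean termination of at least 1%), CMC effect and interaction with the animal as a block; bins used the library total. PSU scores were tested with limma 3.58.1. Adjustment was by Benjamini-Hochberg over all positions, bins or sites, with a threshold of 0.05. Single values had exact permutation tests, 2-sided. DESeq2 1.42.0, limma on log2(% + 0.1), windows of 50, 40 and 30 nt, other limits and leaving out each animal were alternatives. The tests were first tested on simulated data. R 4.3.3, Python 3.11.15 and matplotlib 3.10.9 were used.

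The positions named were the called sites, the 5 strongest tested mock stops, the 5 smallest CMC-effect p in each direction, the 3 smallest p of each genotype test, and the 3 densest, thinnest and smallest-p bins. Those called by the paired mock test, by DESeq2 or by the 2% limit were named after their values were seen. The stretch and the lists were chosen with earlier results of these data known.

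Both genotypes share the numbers 1 to 4. Deviations of log2 termination from the genotype mean correlated between same-numbered mock libraries across 3985 positions (r = 0.658, 0.424, 0.169 and 0.381 for numbers 1 to 4). This met the rule used here for pairing the mock libraries, every r above 0.1. Leaving out both animals numbered 1 gave 0.025, -0.067 and 0.181 for the others, which does not meet the rule, so the pairing rests on the animals numbered 1. In the CMC libraries every r was below 0. Chi-square tests over the stretch found no library deposited again under another number (24 pairs within groups, at least 1.39 per degree of freedom).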

Additional observations from a re-analysis of the deposited data

Results flagged for a closer look

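Dixon's test was applied to 74 sets of 4 animals for the values above (terminations, PSU scores and shares), and in 15 an animal lay far from the other 3. Of these, 9 were among the 28 sets at the 7 stops of the paired mock test. Those stops were chosen on the same values, so the rate that chance gives, about 1 set in 20, is no measure for them. In the other 46 sets there were 6, of which 3 were values of animals numbered 1. The sets share libraries and windows and are not independent.

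Control 1 stood above the other 3 controls in mock termination at stop 2239 (13.7% against 3.85% to 4.51%), at 2442 (8.22% against 2.39% to 3.29%), at 2620 (32.1% against 16.6% to 19.1%), at 2635 (3.92% against 0.884% to 1.03%), at 3161 (10.54% against 3.68% to 3.86%), at 3187 (5.21% against 2.54% to 2.93%) and at 3202 (3.21% against 1.37% to 1.42%). It was also high at the called stop 2391, with 2.69% against 2.14% to 2.2% in mock and 10.3% against 5.95% to 6.50% with CMC. The CMC value had a window of 5017 read starts, against 10217 to 11552 in the other controls.

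Rnmt cKO 1 was high in mock at stop 2183 (13.7% against 6.93% to 7.70%), at 2442 (5.48% against 1.06% to 1.23%) and at 2635 (2.00% against 0.492% to 0.545%). Rnmt cKO 3 had 35.6% at stop 2398, against 21.9% to 23.5%. Control 4 was low in mock at the called stop 2598, with 0.891% against 0.955% to 0.966%, and control 2 held 5.8% of its mock 28S read starts in the last 590 positions of the stretch, against 6.22% to 6.28%.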

How the results depend on the processing

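Of 824 repeats of a result under another setting, 753 stayed the same. For a test this meant the same direction and side of the threshold, and for a count a change of at most 1.5 times. Of the rest, 22 reversed and 19 passed the threshold only under the alternative. Another 2 no longer passed it (the CMC decreases at stops 2652 and 2975 without the block). The remaining 28 were counts that moved by over 1.5 times or to or from 0. A CMC limit of 5% left 1 called site per genotype and 1 in all; leaving out an animal gave 2 to 3 in each genotype. Windows of 30 nt raised the CMC increases to 118 and the decreases to 48, with more positions tested, and a 2% limit lowered the increases to 27; leaving out an animal gave 59 to 79 increases and 14 to 58 decreases. By genotype, mock calls were 3 with DESeq2 and 7 with the replicate block, and CMC calls 13 with DESeq2, 6 with a 2% limit, 5 with TMM library sizes without coverage (chosen after seeing the data) and 0 to 1 without an animal (1, stop 2690, without control 1). The block left 0 calls at 0 for PSU scores, CMC termination, interaction and both sets of bins. CMC bins past the threshold were 1 with TMM and 14 with DESeq2, and mock bins 5 with DESeq2. The share difference in CMC libraries ranged from -0.174 (without control 1) to 0.628 without an animal. Leaving out each animal from the paired mock test, also chosen after seeing the data, gave 0 to 14 calls. The causes were not tested.

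The other reversals concerned values near 0. At nucleotide 2390 the PSU difference was 0.179 with windows of 50 nt and ranged from -0.431 to 0.397 without an animal (above 0 without control 1, Rnmt cKO 3 or Rnmt cKO 4). Its mock log2 change was -0.00053 with the block, -0.208 with TMM and -0.192 to 0.152 without an animal. Its CMC change was 0.067, 0.183 and 0.082 with windows of 50, 40 and 30 nt, 0.065 with TMM and -0.165 to 0.126 without an animal, and its interaction 0.036, 0.093 and 0.032 with those windows and -0.241 to 0.165 without an animal. At stop 3034 the mock change ranged from -0.046 to 0.125 without an animal. Mock counts at called stops went down to 65 read starts, which limits the precision of the scores; the intervals given cover the spread between animals.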
